A study of Mus musculus with 3 samples.

Results

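The neuregulin genes Nrg1, Nrg2 and Nrg3 and the ErbB receptor genes Egfr, Erbb2, Erbb3 and Erbb4 were examined in single cells of mouse dorsal root ganglia (DRGs), the ganglia that hold the cell bodies of sensory neurons. These 7 genes were chosen by name from the 31053 genes of the count tables. The single cell data consisted of 1 library of naïve mice, 1 library taken 7 days after spared nerve injury (SNI) and 1 library taken 14 days after SNI. Each library was a pool of the 8 L3 and L4 DRGs of 2 male C57BL/6J mice aged 13 weeks, injured on the left and the right in the SNI groups and uninjured in the naïve group. Cells were freed with collagenase and dispase and passed through a strainer, so the makeup of a library is that of the cells that survived. The question was how the genes of this signalling system were distributed over the cell types of the ganglion and how their RNA levels differed after nerve injury. No condition had a replicate, so differences between libraries have no test and no p-value, and the mice, the day of preparation and the injury cannot be told apart. The labels are followed here. The Methods of the paper give other mice (female and younger) but do not describe the single cell libraries. For the single cell data, its Results name a partial ligation of the sciatic nerve, whereas its Discussion names spared nerve injury.

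Neuregulins are ligands of the epidermal growth factor (EGF) family that act on ErbB receptor tyrosine kinases of the receiving cell. ErbB3 and ErbB4 bind neuregulins, whereas ErbB2 has no known ligand of its own and signals as a partner of ErbB3 or ErbB4, and the kinase of ErbB3 itself has little activity. In peripheral nerve, Nrg1 on axons acts through ErbB2 and ErbB3 on Schwann cells, where it supports their survival and controls myelination. Egfr is the receptor of EGF, transforming growth factor alpha and related ligands.

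In the mm10 build with GENCODE annotation, Nrg1 lies at chr8:31814551-32884029 on the minus strand, with 12 coding transcripts and 15 distinct 3′ ends. Nrg3 lies at chr14:38368952-39473088 on the minus strand. Erbb3, at chr10:128567523-128589652 on the minus strand, has 1 annotated transcript, and both Nrg3 and Erbb3 overlap 1 other annotated gene on the same strand. Erbb2 lies at chr11:98412470-98437716 on the plus strand, Egfr at chr11:16752203-16918158 on the plus strand and Erbb4 at chr1:68032186-69108059 on the minus strand, where 8 other annotated genes overlap it on the same strand. Counting of 3′ ends does not tell the isoforms of Nrg1 apart.

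Promoter windows of RefSeq (GRCm38.p6), which hold up to 250 bases before the transcript start, were used for 4 of the 7 genes, namely Nrg3, Erbb2, Erbb4 and Egfr. Most UMIs (unique molecular identifiers) of Nrg3 were in neurons, of Erbb2 in glial classes and of Egfr in fibroblasts, as described further on. The windows of Nrg3 (chr14:39473089-39473338, minus strand), Erbb2 (chr11:98412234-98412469, plus strand) and Egfr (chr11:16751953-16752202, plus strand) are shown. They read 5′ to 3′ along the gene, and capitals mark matches to the motifs searched.
Nrg3: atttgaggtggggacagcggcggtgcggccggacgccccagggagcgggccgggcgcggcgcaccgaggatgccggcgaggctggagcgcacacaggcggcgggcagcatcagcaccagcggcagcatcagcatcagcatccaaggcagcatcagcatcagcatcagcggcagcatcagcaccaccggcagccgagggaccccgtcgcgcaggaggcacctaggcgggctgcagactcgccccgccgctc
Erbb2: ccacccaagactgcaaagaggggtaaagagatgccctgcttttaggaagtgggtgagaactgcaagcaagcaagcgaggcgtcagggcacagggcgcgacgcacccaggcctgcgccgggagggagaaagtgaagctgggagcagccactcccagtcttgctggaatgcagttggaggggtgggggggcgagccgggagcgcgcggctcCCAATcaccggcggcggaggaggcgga
Egfr: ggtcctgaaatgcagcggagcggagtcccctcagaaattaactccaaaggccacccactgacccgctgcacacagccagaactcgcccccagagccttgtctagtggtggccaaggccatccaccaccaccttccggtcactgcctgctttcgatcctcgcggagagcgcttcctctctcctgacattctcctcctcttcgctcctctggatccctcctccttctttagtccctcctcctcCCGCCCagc
Both strands were searched for the GC box GGGCGG, the TATA box TATAAA, the CCAAT box CCAAT and the SOX motif ACAAAG, which were held by 32.7%, 12.4%, 33.8% and 16.5% of all 32851 windows. The Erbb2 window held 1 CCAAT box and the Egfr window held 1 GC box, read on the other strand as CCGCCC. None of these letters stood in the windows of Nrg3 and Erbb4. The share of G and C was 72.4% for Nrg3, 65.7% for Erbb2, 60.8% for Egfr and 54% for Erbb4, compared with a median of 52.4% over all windows.

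Of 11937 barcodes, 9662 had at least 500 genes and at most 20% mitochondrial unique molecular identifiers (UMIs), and 9590 cells were kept after 72 doublets were left out. A gate of 5 marker genes per class, none of them a gene described here, put 9176 cells into 10 classes, of which 8 had enough cells for comparison. These held 2075 satellite glial cells (SGCs), which wrap the neuronal somata, 4105 myelinating and 286 non-myelinating Schwann cells, 486 neurons, 836 endothelial cells, 389 mural cells, 330 fibroblasts and 543 macrophages. Each class expressed all 5 of its own markers in every library. Of the non-myelinating Schwann cells, 31.3% to 36.4% lay close to the border of the gate, and 194 cells gated as SGCs fell into the cluster named after non-myelinating Schwann markers. The neurons of the day 7 library had a median of 2256 UMIs, compared with 55695 in the naïve and 77424 in the day 14 library, and 148 of 205 had under 10000 UMIs. Levels are CPM (UMIs of the gene per 1000000 UMIs of the class), with a 95% Poisson interval that covers counting error only. The libraries shared 1 to 6 barcodes in pairs.

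Nrg1, the neuregulin of axons, was a neuron gene, and 96.1% of its 2555 UMIs were in neurons. Its level in neurons was 93.8 CPM (87.4 to 101) in the naïve library, 92.9 (85.6 to 101) on day 7 and 82.5 (77.6 to 87.7) on day 14. The mean over the libraries was 89.7 ± 6.26 CPM (SD, n = 3), and the interval of day 14 only just overlapped those of the other libraries. In neurons with at least 10000 UMIs the levels were 94.3, 94.6 and 82.7 CPM, so leaving out the shallow neurons changed the summed level of day 7 little. Deep cells carry most of such a sum, so this does not give the level of the shallow cells. In the shallow neuron cluster led by Sprr1a, Nrg1 was at 45.7 CPM (23.6 to 79.9) on day 7, on 12 UMIs. In SGCs the level was 4.12 CPM (2.58 to 6.24) in the naïve library, 2.07 (0.946 to 3.93) on day 7 and 2.55 (1.43 to 4.21) on day 14, so that the neuron and SGC values were far apart in every library. The class difference was tested over the sums of UMIs per class and library with edgeR's quasi-likelihood test, and Nrg1 was higher in neurons than in SGCs by 5.07 on the log2 scale (SE 0.25, adjusted p = 7.56e-17). Of all genes tested, 41.3% were called higher in neurons than in SGCs. A UMI of Nrg1 was found in 78.6% of neurons in the naïve library, 34.6% on day 7 and 78.7% on day 14, which follows the depth of these cells. After thinning to 2000 UMIs per cell the shares were 16.1%, 15.05% and 14.8%, compared with 0% to 0.289% in endothelial cells. Thinning left out cells under 2000 UMIs, so these shares rest on fewer cells. In the neuron cluster led by Sprr1a it left out 111 of the 150 cells of day 7.

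**Figure D1:**
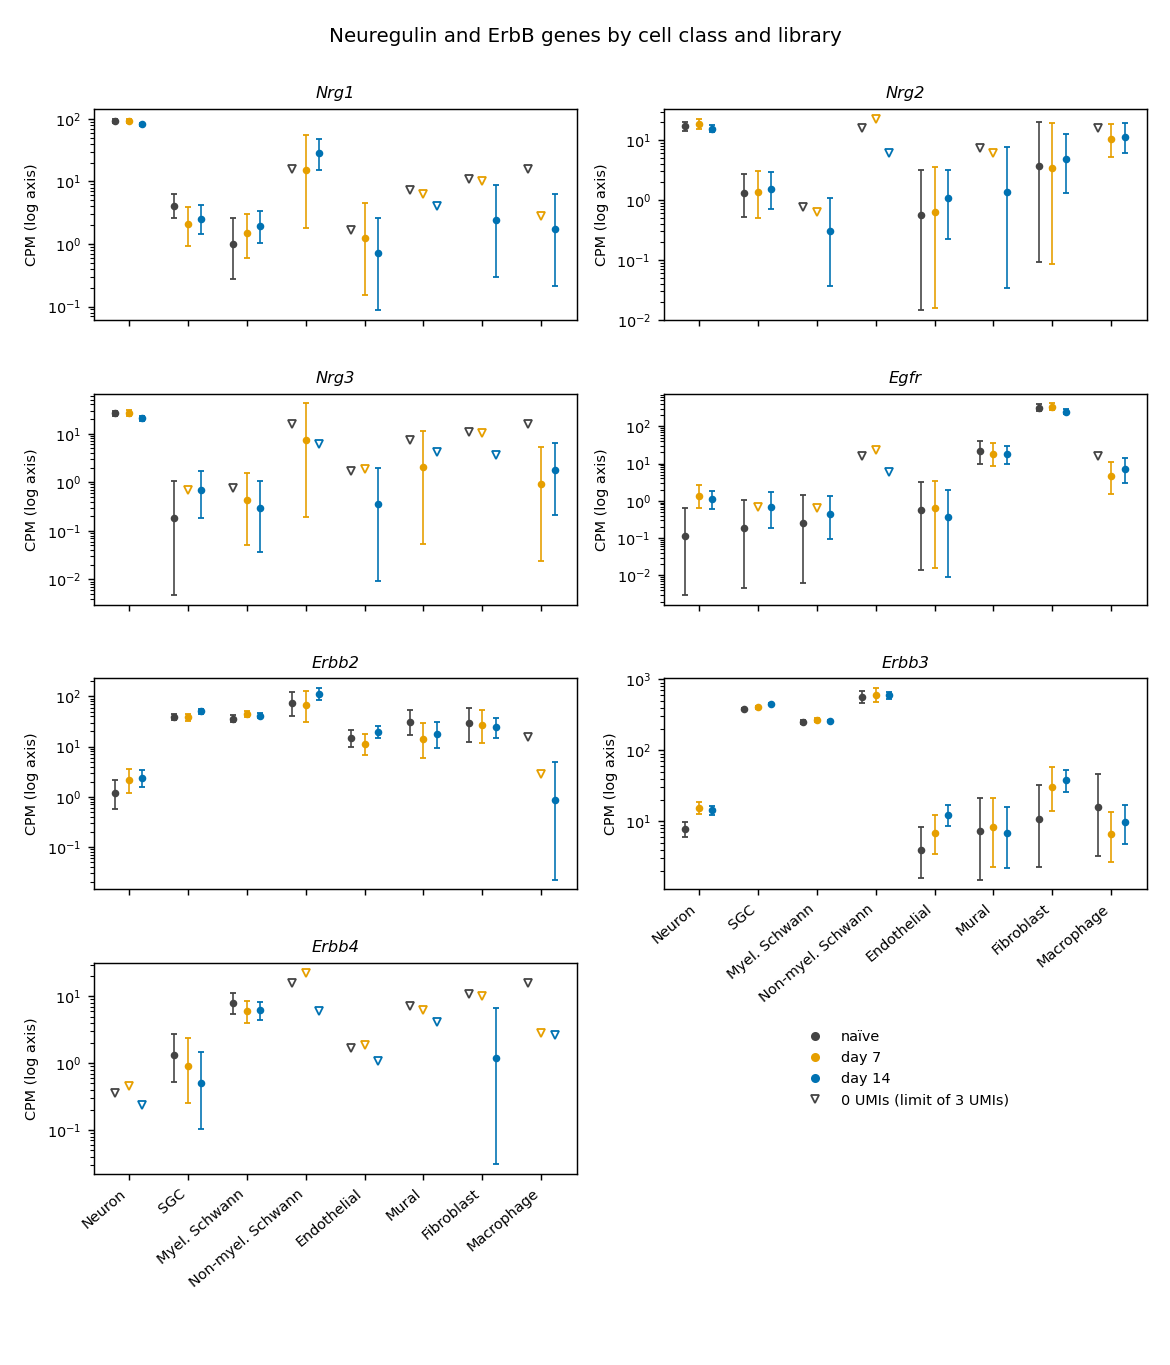
CPM of each gene on a log axis in the 8 cell classes, with 1 point per library and its 95% Poisson interval, and open triangles at the limit of 3 UMIs where no UMI was counted. Nrg1, Nrg2 and Nrg3 stand highest in neurons apart from limits, Erbb2 and Erbb3 in the glial classes, Erbb4 in myelinating Schwann cells and Egfr in fibroblasts.

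Nrg1 was present in every subtype of neuron at similar levels. Large-diameter neurons (marked by Nefh, Pvalb, Ntrk3 and Ntrk2) had 111 CPM in the naïve library, 103 on day 7 and 95.1 on day 14. Non-peptidergic neurons (Mrgprd, Lpar3, Plxnc1) had 85.2, 89.7 and 82.7 CPM, and peptidergic neurons (with Tac1 and Calca among their markers) had 94.5, 91.2 and 83.7 CPM. The non-peptidergic level was lower than the large-diameter level in the naïve library, with a ratio of 0.767 (0.650 to 0.905), whereas the intervals of this ratio included 1 on day 7 and day 14. On day 14 the Nrg1 level over all neurons was lower than in the naïve library by a log2 difference of -0.18 (-0.32 to -0.05), and within each subtype the interval of this difference included 0. The makeup of the neurons differed as well, since non-peptidergic neurons gave 44.8% of the neuronal UMIs in the naïve library and 24.8% on day 14. The part of this difference in the level of Nrg1 was not tested.

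Neurons with at least 10000 UMIs were also divided by 5 genes that injured neurons are known to express (Atf3, Sprr1a, Gal, Sox11, Ecel1). At least 3 of these were present in 4 cells of the naïve library, 27 of day 7 and 48 of day 14. The ratio of Nrg1 in these cells to the other deep neurons of the same library was 1.18 (0.837 to 1.62) in the naïve library, 0.853 (0.723 to 1.01) on day 7 and 0.816 (0.718 to 0.925) on day 14. Nrg2 gave ratios of 1.31 (0.556 to 2.66), 0.600 (0.404 to 0.884) and 0.498 (0.359 to 0.684). Nrg3 gave 0.939 (0.424 to 1.82), 0.830 (0.605 to 1.14) and 0.782 (0.604 to 1.01). The intervals lay under 1 for Nrg2 in both injured libraries and for Nrg1 on day 14, and they included 1 for Nrg1 on day 7 and for Nrg3 in each library. The ratios compare cells within a library and have no replicate, and the part of the subtype makeup was not tested.

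**Figure D2:**
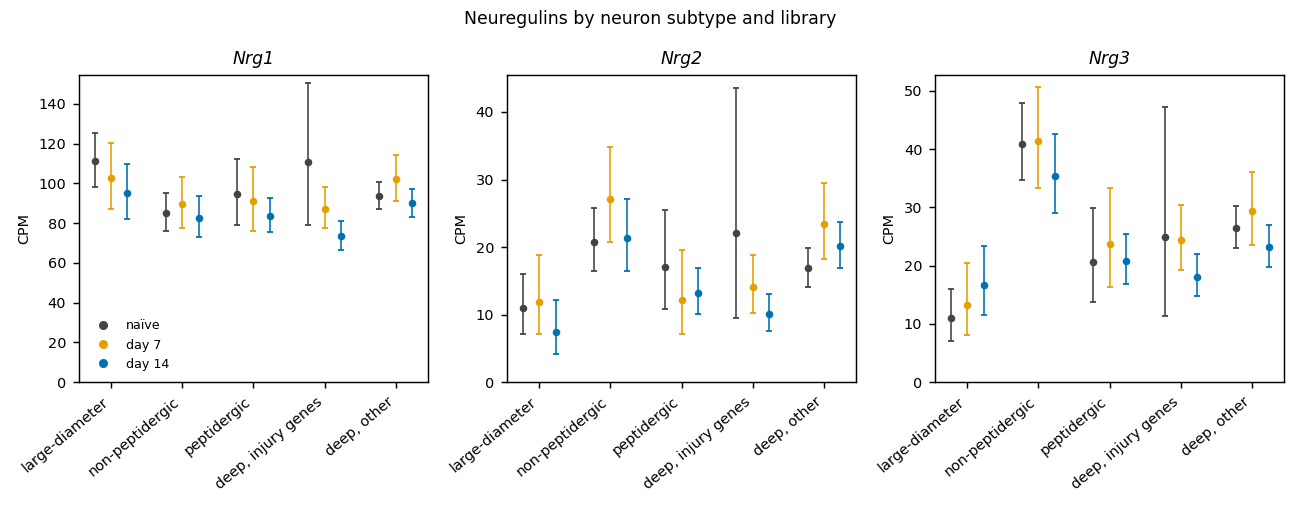
CPM of Nrg1, Nrg2 and Nrg3 in 3 neuron subtypes and in neurons with at least 10000 UMIs ("deep"), divided by whether at least 3 of 5 injury genes were present; points are libraries and bars 95% Poisson intervals. Nrg3 is highest in non-peptidergic neurons in all 3 libraries, and Nrg2 is lower in deep neurons with injury genes than in the other deep neurons on day 7 and day 14.

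Nrg2, whose gene lies on chromosome 18, encodes another neuregulin and was also highest in neurons, which held 87.9% of its 528 UMIs. The level in neurons was 17.0 CPM (14.4 to 20.1) in the naïve library, 18.5 (15.4 to 22.1) on day 7 and 15.5 (13.4 to 17.9) on day 14, with overlapping intervals. In SGCs it was 1.31 CPM in the naïve library, 1.38 on day 7 and 1.53 on day 14, and Nrg2 was higher in neurons than in SGCs by 3.71 on the log2 scale (SE 0.29, adjusted p = 2.56e-12 with edgeR). SGCs were in turn higher than myelinating Schwann cells (adjusted p = 0.000807; 25.0% of all genes tested were called), where 0, 0 and 2 UMIs were counted. Among neurons, the non-peptidergic subtype had 20.7, 27.1 and 21.3 CPM in the order naïve, day 7 and day 14, and the large-diameter subtype had 10.9, 11.9 and 7.39 CPM. The ratio between them was 1.89 (1.20 to 3.07), 2.27 (1.32 to 4.08) and 2.88 (1.63 to 5.43), above 1 in every library.

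Outside neurons, the most Nrg2 UMIs were in macrophages, with 24, and in SGCs, with 22. No Nrg2 UMI was among the 189124 UMIs of naïve macrophages, a count that leaves room for at most 15.9 CPM. The level was 10.3 CPM (5.16 to 18.5) on day 7 and 11.4 (6.05 to 19.4) on day 14. The 11 UMIs of day 7 came from 11 cells and the 13 UMIs of day 14 from 12 cells. The naïve library had 68 macrophages, compared with 213 and 262, and its limit lies above both later values, so a difference from the naïve library was not detectable at this depth. Nrg2 was higher in macrophages than the mean log2 level of the other classes (adjusted p = 1.77e-06 with edgeR), where 26.3% of all genes tested were called. Macrophages still lay below neurons, with means over the libraries of 7.24 and 17.0 CPM. Of the 5 neuron markers, 4 or 5 were detected in macrophages, and they summed to 68.7 CPM in the naïve library, 115 on day 7 and 129 on day 14. Nrg1 had 0, 0 and 2 UMIs in macrophages. Per 1000 neuron-marker UMIs, macrophages held 0, 90.2 and 88.4 Nrg2 UMIs in the order naïve, day 7 and day 14. Neurons held 2.53, 2.23 and 1.77. The part of neuronal RNA in the Nrg2 of macrophages was not tested.

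Nrg3, a neuregulin that binds ErbB4, had 97.5% of its 684 UMIs in neurons. Its level was 26.3 CPM (22.99 to 30.01) in the naïve library, 26.9 (23.1 to 31.2) on day 7 and 21.0 (18.5 to 23.6) on day 14. In SGCs 1, 0 and 4 UMIs were counted, and Nrg3 was called higher in neurons than in SGCs (adjusted p = 1.68e-14 with edgeR). Non-peptidergic neurons had the highest level, with 40.9 CPM in the naïve library, 41.3 on day 7 and 35.3 on day 14. Large-diameter neurons had 10.9, 13.3 and 16.8 CPM, and the ratio of non-peptidergic to large-diameter neurons was 3.74 (2.46 to 5.90), 3.12 (1.91 to 5.33) and 2.11 (1.42 to 3.19). Peptidergic neurons lay between them with 20.7, 23.7 and 20.8 CPM. Over all neurons the day 14 level was lower than the naïve level by a log2 difference of -0.33 (-0.59 to -0.07), and within each subtype the interval included 0.

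The neuron and glial patterns met in 1 exception. Non-myelinating Schwann cells had 0, 2 and 14 Nrg1 UMIs in the same order of libraries, or 0, 15.1 and 28.3 CPM. Against the mean log2 level of the other classes, Nrg1 was called higher there (adjusted p = 0.000576 with edgeR, where 11.2% of all genes tested were called). The mean over the libraries was 14.5 CPM, below the 89.7 CPM of neurons. However, 13 of the 14 UMIs of day 14 came from 1 cell with 26344 UMIs. Without that cell the day 14 level was 2.13 CPM (0.0540 to 11.9) and the adjusted p was 0.544. With classes from clusters it was 0.0752, and without the day 14 library 0.314.

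Erbb3, the neuregulin receptor that lacks strong kinase activity of its own, had the most UMIs of the 7 genes and was concentrated in glia. SGCs held 54.4% of its 11807 UMIs, myelinating Schwann cells 33.5% and non-myelinating Schwann cells 4.09%. In SGCs the level was 380.5 CPM (364 to 397) in the naïve library, 403 (384 to 422) on day 7 and 449 (432 to 466) on day 14. In myelinating Schwann cells it was 251 (236 to 268), 267 (252 to 282) and 259 (247 to 271), and in non-myelinating Schwann cells 559 (458 to 676), 605 (480 to 753) and 600.2 (534 to 672). The order was therefore the same in the 3 libraries, with non-myelinating Schwann cells highest, SGCs next and myelinating Schwann cells lowest, and without overlap of intervals within a library. Fibroblasts followed with a mean of 26.4 ± 13.9 CPM (SD, n = 3), neurons with 12.5 ± 4.18, macrophages with 10.7 ± 4.73, endothelial cells with 7.69 ± 4.17 and mural cells with 7.46 ± 0.730, and neighbours in this lower group did not differ beyond their spread.

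Tested over the libraries, Erbb3 was higher in SGCs than in myelinating Schwann cells by 0.62 on the log2 scale (SE 0.10, adjusted p = 2.55e-06 with edgeR). It was higher in non-myelinating than in myelinating Schwann cells by 0.86 (SE 0.13, adjusted p = 3.33e-06; 11.6% of genes called). Between SGCs and non-myelinating Schwann cells the fitted difference of -0.24 (SE 0.12) did not pass (adjusted p = 0.229), although the CPM intervals did not overlap; the fit rescales each sum by trimmed mean of M-values (TMM). Neurons were lower than SGCs by 4.89 (SE 0.13, adjusted p = 1.60e-24; 36.7% of genes called). Against the mean of the other classes, Erbb2 and Erbb3 were both called higher in SGCs (28.4% of all genes tested), in myelinating Schwann cells (28.2%) and in non-myelinating Schwann cells. Both were called lower in neurons (32.4%) and in macrophages (27.3%), and Erbb3 also in endothelial cells (25.7%) and, together with Nrg1, in mural cells (17.1%). Nrg1, Nrg2 and Nrg3 were all called higher in neurons (43.8%). In all, 22 of 48 combinations of gene and class passed in either direction, a share near the 46.6% of all such combinations over the genes tested. Erbb4 was left out by the filter on low counts.

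At least 1 Erbb3 UMI was found in 82.0% of SGCs in the naïve library, 91.7% on day 7 and 91.6% on day 14. Median depths were 4993, 6910 and 6699 UMIs. After thinning to 2000 UMIs, the shares were 54.5%, 57.1% and 59.6%, compared with 0.590%, 0.790% and 1.90% in endothelial cells, a class taken here as background. The shares in thinned myelinating Schwann cells were 39.5%, 44.0% and 42.5%.

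Erbb3 differed between clusters of SGCs. Clusters were built without the 7 genes, and these ratios describe the cells without a test. The cluster led by Egr3 and Ednrb had 509 CPM in the naïve library, 550 on day 7 and 559 on day 14, and the cluster led by Fabp7, Acsbg1 and Aldoc had 279, 307 and 370. The ratio was 1.82 (1.65 to 2.01), 1.79 (1.62 to 1.98) and 1.51 (1.39 to 1.64). A small SGC cluster led by interferon-response genes such as Ifit3b and Isg15, with 161, 32 and 29 cells, had 435, 515 and 464 CPM. Within myelinating Schwann cells the cluster led by Spp1 and Lox was lowest, with 162, 147 and 146 CPM against 272, 302 and 291 in the other myelinating clusters together.

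**Figure D3:**
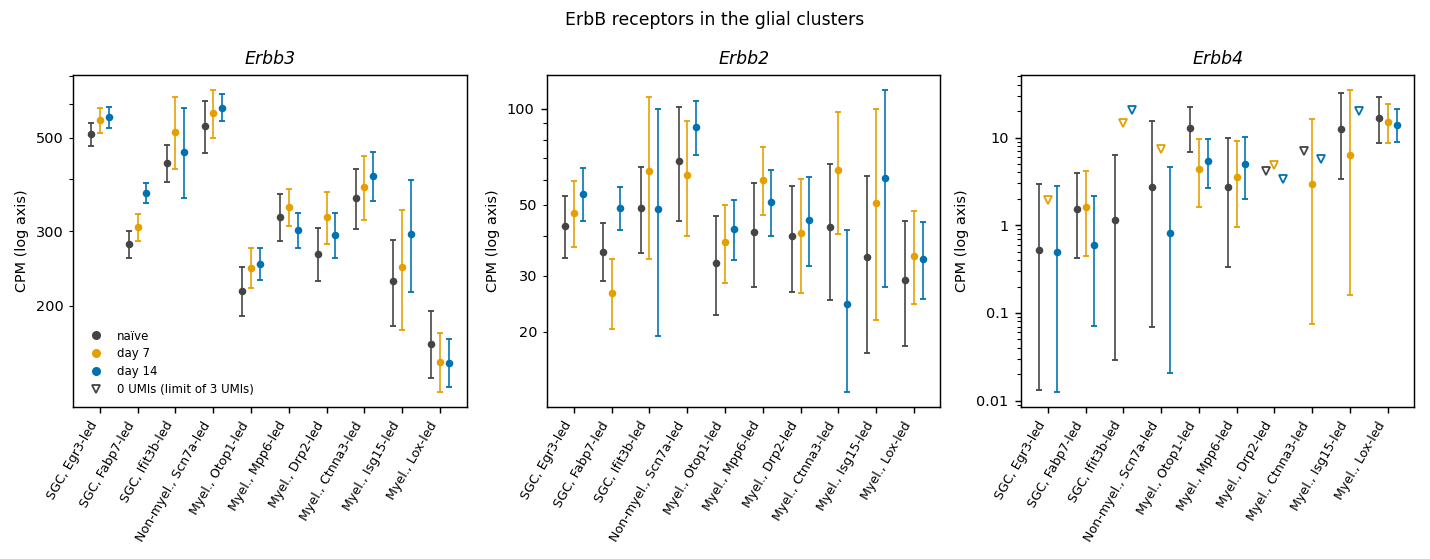
CPM of Erbb3, Erbb2 and Erbb4 on log axes in the 10 glial clusters, named by a leading gene; points are libraries, bars 95% Poisson intervals, and triangles the limit of 3 UMIs. Erbb3 is highest in the Egr3-led SGC and the non-myelinating Schwann cluster and lowest in the Lox-led myelinating cluster. In that Lox-led cluster Erbb4 is highest in all 3 libraries, apart from limits.

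The log2 difference of Erbb3 in SGCs from the naïve library was 0.08 (-0.01 to 0.18) on day 7 and 0.24 (0.15 to 0.32) on day 14, and the ratio of day 14 to day 7 was 1.11 (1.05 to 1.18). The day 14 difference was seen in both large SGC clusters, with 509 against 559 CPM in the Egr3-led and 279 against 370 in the Fabp7-led cluster. Mitochondrial genes took 13.2% of the SGC UMIs in the naïve library, 14.8% on day 7 and 15.1% on day 14, and with the other UMIs as the total the day 14 difference was 0.27. Under a stricter filter of at most 10% mitochondrial UMIs and at least 1000 genes, which left 147, 19 and 17 SGCs, the differences were -0.92 on day 7 and 0.07 on day 14. In myelinating Schwann cells the intervals of both differences included 0.

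Outside glia, the Erbb3 level was higher in both injured libraries than in the naïve library in neurons, endothelial cells and fibroblasts, and glial markers were present in each of these classes. In neurons the level was 7.76 CPM (6.00 to 9.87) in the naïve library, 15.5 (12.6 to 18.8) on day 7 and 14.3 (12.3 to 16.6) on day 14, so that both later intervals lay above the naïve one, and deep neurons alone had 7.35, 13.9 and 14.1 CPM. All 5 SGC markers were detected in neurons, where they summed to 270.1, 507 and 431 CPM, and the myelinating Schwann markers summed to 110, 165 and 112 CPM. Per 1000 SGC-marker UMIs, neurons held 28.7, 30.5 and 33.2 Erbb3 UMIs, and SGCs 33.2, 34.0 and 43.3. In endothelial cells the level was 3.97 CPM (1.59 to 8.17), 6.91 (3.45 to 12.4) and 12.2 (8.45 to 17.0), while the myelinating Schwann markers there summed to 196, 228 and 287 CPM and the SGC markers to 93.5, 76.0 and 124 CPM. In fibroblasts it was 10.9 CPM (2.25 to 31.9), 30.7 (14.1 to 58.3) and 37.6 (25.6 to 53.4), with 4 or 5 SGC markers at 612, 717 and 1050 CPM and 11 of the 31 UMIs of day 14 in 1 cell. Per 1000 SGC-marker UMIs, endothelial cells held 42.4, 90.9 and 98.6 Erbb3 UMIs and fibroblasts 17.9, 42.9 and 35.8. Erbb3 was thus nearly level against the SGC markers in neurons, whereas in endothelial cells and fibroblasts it was higher against them in both injured libraries, on 3 to 34 UMIs per library and with overlapping intervals. The SGC markers of endothelial cells were lower on day 7 than in the naïve library. The part of glial RNA in these differences was not tested.

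Erbb2, the partner receptor, had 1664 UMIs, of which SGCs held 40.4% and myelinating Schwann cells 37.8%. The level in SGCs was 39.1 CPM (34.0 to 44.8) in the naïve library, 38.2 (32.6 to 44.4) on day 7 and 50.5 (45.0 to 56.6) on day 14. The day 14 interval lay above the others, with a log2 difference from the naïve library of 0.37 (0.11 to 0.63) and a ratio to day 7 of 1.32 (1.09 to 1.61). By cluster, the Fabp7-led SGCs had 35.7, 26.5 and 49.0 CPM and the Egr3-led SGCs 42.9, 47.1 and 54.1. In myelinating Schwann cells the level was 36.2 CPM (30.5 to 42.6), 45.1 (39.3 to 51.6) and 41.4 (36.6 to 46.6), with a day 7 log2 difference of 0.32 (0.01 to 0.64). Non-myelinating Schwann cells had 73.8 CPM (40.4 to 124), 68.0 (31.1 to 129) and 113 (85.5 to 147), resting on 14, 9 and 56 UMIs.

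The SGC and myelinating Schwann levels of Erbb2 were alike, with a fitted log2 difference of 0.01 (SE 0.15, adjusted p = 0.976 with edgeR). Non-myelinating Schwann cells were higher than SGCs by 0.82 (SE 0.23, adjusted p = 0.00942; 6.40% of all genes tested were called in this direction) and higher than myelinating Schwann cells by 0.84 (SE 0.23, adjusted p = 0.00566). Neither call held without the day 14 library, with adjusted p = 0.462 and 0.587. Outside glia, Erbb2 in fibroblasts was at 29.1 (12.6 to 57.4), 27.3 (11.8 to 53.8) and 24.3 (14.8 to 37.5) CPM. Their mean of 26.9 CPM lay below those of SGCs (42.6), myelinating (40.9) and non-myelinating Schwann cells (85.0). Against the mean log2 level of the other classes, Erbb2 was called higher in fibroblasts (adjusted p = 0.0208 with edgeR, 19.8% of genes called). This call was lost without the naïve library (adjusted p = 0.0769) or the day 7 library (0.159). Endothelial cells had 14.7, 11.3 and 19.4 CPM and mural cells 31.6, 14.5 and 17.8. In macrophages 0, 0 and 1 UMIs were counted, and neurons had 1.18, 2.13 and 2.36 CPM.

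Among SGCs of 4000 to 8000 UMIs, an Erbb2 UMI was found in 15.9% of cells with Erbb3 and 23.9% of cells without it in the naïve library. On day 7 these shares were 21.8% and 28.6%, and on day 14 they were 24.3% and 14.8%, where only 21 and 27 cells had no Erbb3 UMI. At this depth single cells showed no order of one kind over the other that was the same in the 3 libraries.

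Erbb4, the neuregulin receptor with both ligand binding and an active kinase, was scarce, with 116 UMIs in all cells. Myelinating Schwann cells held 86.2% of them, with 7.90 CPM (5.37 to 11.2) in the naïve library, 5.96 (3.96 to 8.62) on day 7 and 6.17 (4.43 to 8.37) on day 14. An Erbb4 UMI was seen in 2.08%, 2.29% and 2.33% of these cells. SGCs had 1.31, 0.919 and 0.511 CPM, with intervals below those of myelinating Schwann cells in each library. In neurons no UMI was counted in any library, which allows at most 0.353, 0.456 and 0.236 CPM. Within the myelinating cells the Spp1- and Lox-led cluster, in which Erbb3 was lowest, had 16.7, 14.99 and 14.1 CPM of Erbb4, and the other myelinating clusters together had 5.92, 3.33 and 3.58. The ratio of 2.81 (1.25 to 6.11), 4.50 (2.00 to 10.4) and 3.92 (2.01 to 7.76) was above 1 in every library, on 12, 16 and 22 UMIs. The other clusters were uneven, since the Otop1-led cluster had 12.9 CPM (6.87 to 22.1), 4.41 (1.62 to 9.59) and 5.37 (2.68 to 9.62), a small interferon-response cluster had 12.5 CPM (3.41 to 32.0) in the naïve library, and the Drp2-led cluster had 0 UMIs in all 3. The intervals of the Otop1-led and the interferon-response cluster overlapped that of the Lox-led cluster in every library where they are given.

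Egfr was a fibroblast gene in the DRG, and fibroblasts held 82.0% of its 477 UMIs. Their level was 317 CPM (254 to 391) in the naïve library, 338 (275 to 412) on day 7 and 249 (216 to 285) on day 14. The intervals of naïve and day 14 overlapped, whereas day 14 was below day 7 with a ratio of 0.736 (0.576 to 0.945). Mural cells, the contractile cells and pericytes of vessels, had 21.9 CPM (10.0 to 41.5), 18.6 (8.51 to 35.3) and 17.8 (9.47 to 30.4). Fibroblasts were higher than mural cells by 3.95 on the log2 scale (SE 0.30, adjusted p = 2.06e-11 with edgeR, where 16.4% of all genes tested were called). Mural cells were higher than the mean log2 level of the other classes, fibroblasts included (adjusted p = 1.08e-06 with edgeR, 20.4% called). Among mural cells, the cluster led by Abcc9, Vtn and Kcnj8, genes of pericytes, had 57.2, 65.8 and 41.6 CPM, on 7, 8 and 11 UMIs. The cluster led by Acta2 and Myh11, genes of smooth muscle, had 10.0, 5.29 and 4.19 CPM, on 3, 2 and 2 UMIs.

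In SGCs Egfr had 1, 0 and 4 UMIs, and in myelinating Schwann cells 1, 0 and 3. Neurons had 1, 9 and 14 UMIs, of which 6 on day 14 came from 1 cell, and the difference from SGCs did not pass (adjusted p = 0.0619 with edgeR). Macrophages had 0, 4.70 and 6.99 CPM from 0, 5 and 8 UMIs, 4 of the last 8 from 1 cell. Their call against the mean log2 level of the other classes (adjusted p = 0.0261 with edgeR) was lost without the day 7 library (0.0769) or the day 14 library (0.222). Glia of the DRG therefore had at most 4 UMIs of Egfr in any library in these classes.

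Of 70 combinations of gene and class per injured library, including the classes with few cells, 16 on day 7 and 20 on day 14 had at least 20 UMIs in the libraries compared. A difference of at least 2-fold from the naïve library was reached by 1 on day 7, Erbb2 in mural cells, where 2.43% of all genes with that many UMIs were as much lower. Its log2 difference of -1.13 (-2.69 to 0.31) rested on 13 and 7 UMIs. On day 14 the limit was reached by 3, Erbb2 in neurons (1.01, -0.06 to 2.21; 6.92% of genes as much higher), Erbb3 in endothelial cells (1.62, 0.42 to 3.04; 3.41%) and Erbb3 in fibroblasts (1.78, 0.10 to 4.14; 5.84%). In each of these 3 classes the SGC markers also summed to more on day 14 than in naïve cells, and their part was not tested. In none of these did the class concerned hold the largest share of the gene's UMIs. In the classes that did, Nrg1, Nrg2 and Nrg3 in neurons, Erbb2 and Erbb3 in SGCs, Erbb4 in myelinating Schwann cells and Egfr in fibroblasts, every difference from the naïve library was under 0.5 on the log2 scale in size.

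**Figure D4:**
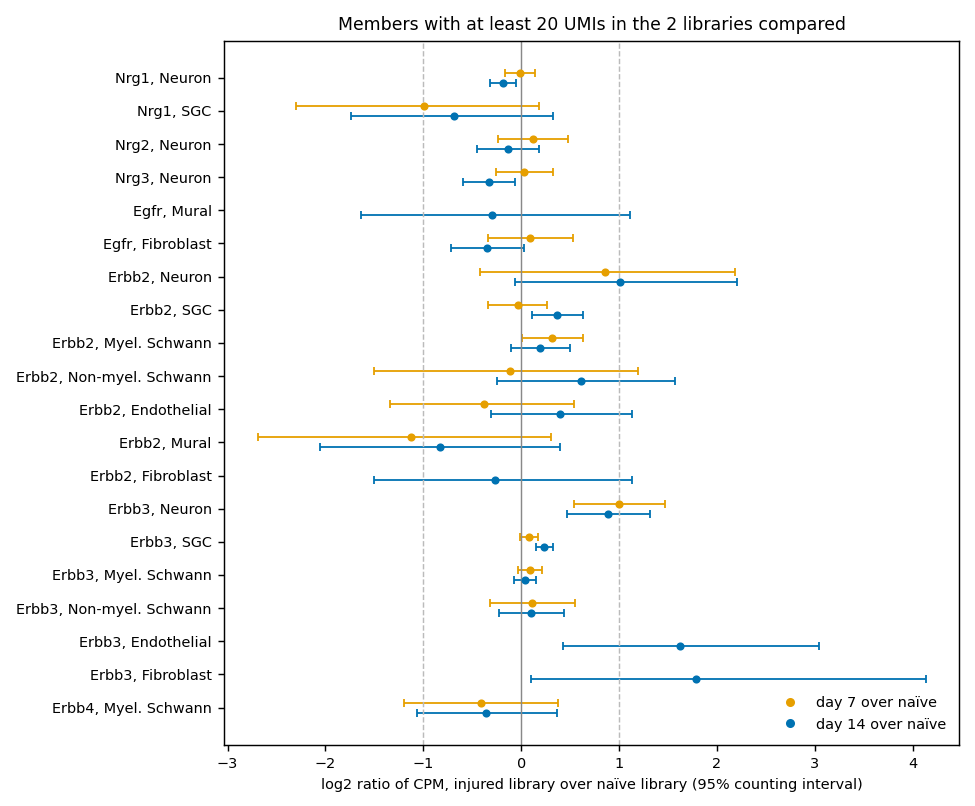
Log2 ratio of CPM in each injured library over the naïve library for every gene and class with at least 20 UMIs in the libraries compared; bars are 95% intervals of counting error and dashed lines mark 2-fold. The narrow intervals of Nrg1 in neurons and Erbb3 in SGCs lie near 0, but on day 14 that of Nrg1 is below 0 and that of Erbb3 above 0. The largest positive values are Erbb3 in fibroblasts and endothelial cells.

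The other genes of the pathway were followed as a list of 34 genes by role. In SGCs 29 had at least 20 UMIs for day 7 and 0 were 2-fold different, and for day 14 1 of 30 was lower, Spry2 (0.945% of all genes as much lower). The medians of the log2 differences were -0.03 and 0.02. In myelinating Schwann cells 1 of 27 was higher on day 7 (1.30% of all genes) and on day 14 1 was higher (2.08%) and 1 lower (1.05%), with medians of 0.17 and 0.15. In neurons 2 of 28 were higher on day 7 (4.18%), and on day 14 2 were higher and 1 lower (1.45%), with medians of 0.15 and 0.16. In non-myelinating Schwann cells 1 of 14 was higher (2.94%) and 1 lower (5.42%) on day 7, and 4 of 20 were higher on day 14 (7.34%). The median of all genes was within 0.1 of 0 in each of these comparisons.

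Among the ligands, Tgfa, which encodes an EGF-like ligand of Egfr, was 2-fold higher in neurons of both injured libraries. Its level was 10.2 CPM (8.19 to 12.6) in the naïve library, 20.7 (17.3 to 24.4) on day 7 and 23.1 (20.5 to 25.9) on day 14, and it was 9.95, 20.2 and 23.05 in the deep neurons alone. Both later intervals lay above the naïve one. Endothelial cells had the highest Tgfa level, with a mean of 106.5 ± 11.3 CPM (SD, n = 3). Egf was 1.53 CPM in myelinating Schwann cells of the naïve library, 3.41 on day 7 and 3.31 on day 14, on 6, 16 and 22 UMIs, with overlapping intervals. Adam10, a protease that sheds ErbB ligands, was highest in myelinating Schwann cells with 925, 872 and 825 CPM, compared with 221, 205 and 205 in SGCs.

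Cbl, a ubiquitin ligase that takes part in the turnover of ErbB receptors, was at 105, 107 and 111 CPM in SGCs, 149, 163 and 147 in myelinating Schwann cells and 99.5, 113 and 101 in neurons. Pik3r1, the regulatory subunit through which ErbB3 recruits PI3 kinase, was at 680.1, 882 and 773 CPM in SGCs, where both later libraries were above the naïve one, with log2 differences of 0.38 (0.31 to 0.44) and 0.18 (0.12 to 0.25). In non-myelinating Schwann cells Cbl was at 94.9 CPM (56.2 to 150), 37.8 (12.3 to 88.2) and 113 (85.5 to 147), on 18, 5 and 56 UMIs, and was the gene counted there as 2-fold lower on day 7.

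Pou3f1 and Egr2 encode transcription factors of the myelination programme that act in Schwann cells. Pou3f1 was at 591, 712 and 646 CPM in myelinating Schwann cells. In SGCs it was 328 CPM in the naïve library, 235 on day 7 and 196 on day 14, with log2 differences of -0.48 (-0.59 to -0.37) and -0.74 (-0.85 to -0.64). In non-myelinating Schwann cells it was 79.1 CPM (44.3 to 130), 189 (122 to 279) and 198 (161 to 241), more than 2-fold higher in both injured libraries, while the myelinating Schwann markers there summed to 1350, 1414 and 907 CPM. The day 7 value rested on 25 UMIs in 9 cells. The class's own 5 markers summed to 7234, 7219 and 4927 CPM, and the fibroblast markers in it to 1387, 1187 and 2285 CPM, with 2, 3 and 5 of 5 detected, and the part of this shift in the day 14 values of the class was not tested. Egr2 was at 233, 295 and 301 CPM in myelinating Schwann cells and at 0.470, 3.04 and 1.65 CPM in neurons, on 4, 20 and 21 UMIs. Deep neurons alone had 0.474, 0.961 and 1.51 CPM, on 4, 6 and 19 UMIs, which leaves their day 7 comparison under the limit of 20 UMIs. The myelinating Schwann markers in neurons summed to 110, 165 and 112 CPM, whose part was not tested.

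**Figure D5:**
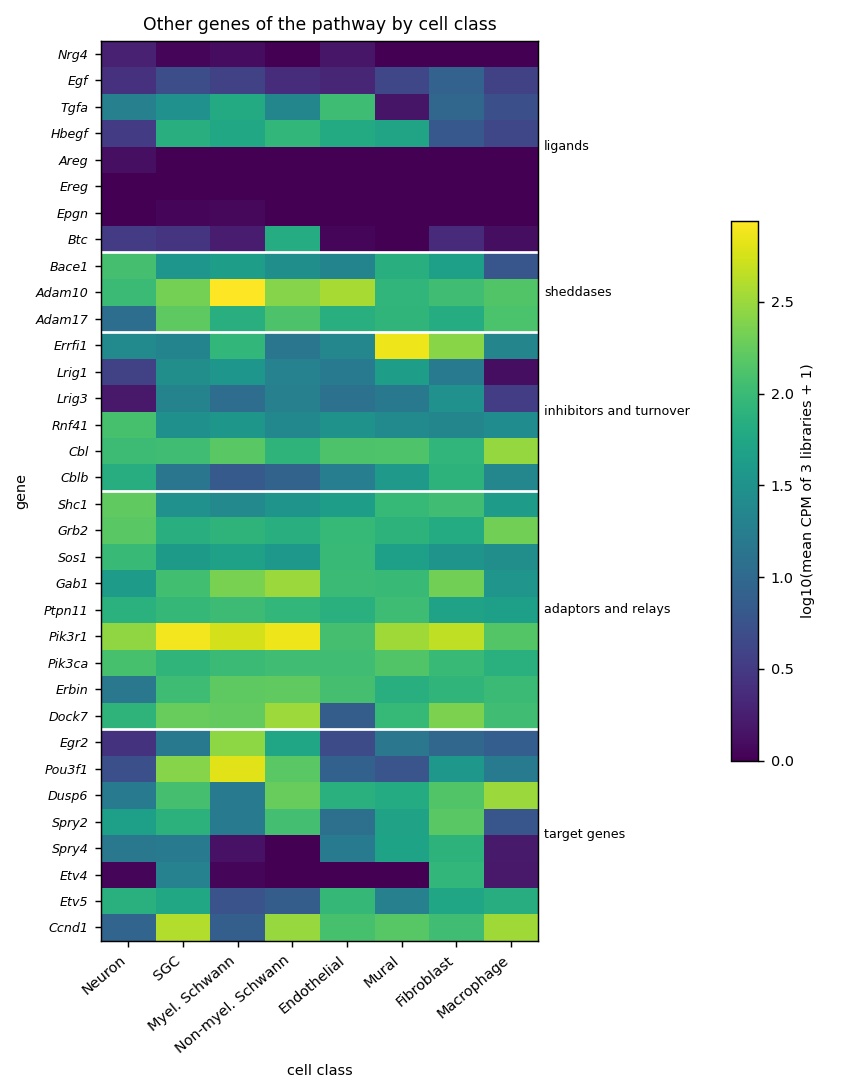
Mean CPM of the 3 libraries, as log10(mean + 1), for the 34 other genes of the pathway (vertical axis, grouped by role) in the 8 cell classes (horizontal axis). Adam10 and Pou3f1 are brightest in myelinating Schwann cells, Pik3r1 in SGCs and Errfi1 in mural cells.

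The genes whose levels were most like each of the 7 were sought over 24 sums of class and library, by Pearson's correlation of log2(CPM + 1) among 12790 genes; the sums share libraries and differ in depth, so these values are descriptions. For Nrg1 they were Kcna4 (r = 0.958), Isl1 (0.937) and Kcnc1 (0.931), the potassium channel genes and the transcription factor gene of sensory neurons. For Nrg2 they were Mafg (0.881), Strip2 (0.879) and Map3k9 (0.860), and for Nrg3 Zdhhc22 (0.968), Ralyl (0.961) and Dscam (0.957). The receptors were followed by other genes. Erbb3 was close to Sostdc1 (0.977) and Plxnb3 (0.972), and Erbb2 was closest to Rftn2 (0.971), Tead1 (0.959) and Tgfbr3 (0.949). Erbb4 was closest to Lctl (0.963), Piwil1 (0.956) and Slc9a3 (0.951), and Egfr to Ptgfr (0.986), Ccl11 (0.972) and Sox9 (0.945). Among the 7 themselves, the correlation was 0.821 for Nrg1 with Nrg3, 0.683 for Erbb2 with Erbb3 and 0.0111 for Egfr with Erbb2.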

How the data were processed

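Per the file headers and the submitters' processing notes, the authors made the count tables with Cell Ranger 3.0.2 on mm10. The deposited values are whole UMI counts per gene and cell, without normalization; whether reads were equalized between libraries is not given in the sources used here. Methods for these single cell libraries are not given in the paper. Total counts per library were 23107376 for naïve, 22343246 for day 7 and 36550911 for day 14, and 0 columns of other samples were present.

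Barcodes under 500 genes or over 20% mitochondrial UMIs were removed. Doublets called by Scrublet in scanpy 1.11.5 (expected rate 5%) were left out, which marked 0.745% of cells. Counts were scaled to 10000 per cell. A cell joined the class whose 5 markers had the highest score, if that score led the next class by a margin of 0.1 and at least 2 of the markers were present. Clusters for the alternative classes came from 2000 variable genes without the 7 genes, 30 principal components, 15 neighbours and leidenalg 0.10.2 at resolution 1. Class differences were tested on UMI sums per class and library with the quasi-likelihood test of edgeR 4.0.16 (R 4.3.3), library as a block, TMM scaling, classes of at least 20 cells per library and Benjamini-Hochberg adjustment over 13018 genes at 0.05. These p-values rest on 3 libraries that also differ in condition. DESeq2 1.42.0 was an alternative. Between libraries, ratios of CPM have exact conditional binomial intervals from scipy 1.17.1 (Python 3.11.15), and counting limits for a count of 0 use 3 counts. The fit was tested on simulated data.

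The 7 genes, the marker lists, the pathway list and the tests were chosen with earlier results of these data known. All 7 genes were named in classes with at least 20 UMIs. Pathway genes were named where they were at least 2-fold different in the same direction in both injured libraries with at least 20 UMIs in a glial or neuron class, and otherwise the gene with the most UMIs of its role. Other genes named were chosen after their values were seen. Genes of like pattern were the 3 highest correlations among genes with at least 200 UMIs. A marker of the peptidergic neurons and a gene of like pattern to Erbb3 are not reported here. Alternatives concerned the cell filter, doublets, clusters, scaling, the low-count filter, the block, each library, and the UMI and fold limits. Those on deep neurons, on 1 cell and on non-mitochondrial totals were chosen after seeing the data. Lymphocytes and neutrophils were too few to be tested.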

Additional observations from a re-analysis of the deposited data

Results flagged for a closer look

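Signal was also present in the 414 cells that the gate put in no class and that no comparison used. There Erbb3 had 327 CPM (462 UMIs), Erbb2 43.9 CPM (62 UMIs), Egfr 4.25 CPM (6 UMIs), Nrg1 2.83 CPM (4 UMIs) and Nrg2 2.83 CPM (4 UMIs), each above the 2.12 CPM that a count of 0 allows. Erbb3 in these cells was 424 CPM in the naïve library, 275 on day 7 and 311 on day 14. By cluster, 131 of them fell with non-myelinating Schwann cells and 103 with SGCs.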

How the results depend on the processing

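The main limit is the single library per condition, so counting intervals leave out the spread between mice and preparations. No paired analysis was possible because no condition has a second library; for class differences the library is the block, and with no replicate block the count of calls was also 22 of 48. It was 28 with DESeq2, 25 of 56 without the low-count filter, 25 with clusters, 23 with doublets kept, 22 with deep neurons only, 22 without the 1 cell rich in Nrg1, and 18 to 21 leaving out each library in turn. Only a part of the class differences of single genes was followed one by one under the alternatives. Of these, 171 stayed on the same side of the threshold, 9 lost their call and no direction turned. Calls lost or gained outside this part enter the counts above but are not listed. The shares of all genes called under the alternatives are not given here. Of the 9 lost calls, 2 were Erbb2 of non-myelinating Schwann cells, 2 Erbb2 in fibroblasts, 2 Egfr in macrophages and 3 Nrg1 in non-myelinating Schwann cells.

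Under the stricter filter of 1000 genes and 10% mitochondrial UMIs, Erbb4 in myelinating Schwann cells was 5.41 instead of 6.68 CPM. This filter left 147, 19 and 17 SGCs, in which Erbb3 differed from naïve by -0.92 on day 7 and 0.07 on day 14 on the log2 scale. The number of 2-fold differences on day 7 was 1, but 0 with at least 50 UMIs, 4 at 1.5-fold, 3 with no filter on cells and 2 with the stricter filter, doublets kept, clusters, deep neurons or non-mitochondrial totals. On day 14 it was 3, but 0 with at least 50 UMIs and 7 at 1.5-fold. Pathway genes past the limit in both injured libraries were 4 pairs of gene and class, but 10 at 1.5-fold. The shares of all genes under these other limits, or past the limit in both libraries, are not given here. The counts therefore do not show whether these genes differ from all genes.

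Shares of cells depend on depth. After thinning, the mean share went from 64.0% to 15.3% for Nrg1, 39.3% to 3.23% for Nrg2 and 43.6% to 4.78% for Nrg3 in neurons, from 25.1% to 7.96% for Erbb2 and 88.4% to 57.1% for Erbb3 in SGCs, from 2.24% to 0.969% for Erbb4 in myelinating Schwann cells and from 55.6% to 41.5% for Egfr in fibroblasts. The cause of the other moves was not tested.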

Other observations

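Spry2, which encodes an inhibitor of signalling by receptor tyrosine kinases and is induced by it, was chosen after its values were seen. Its level in SGCs was 107 CPM (97.98 to 116) in the naïve library, 72.9 (65.1 to 81.3) on day 7 and 51.6 (45.9 to 57.7) on day 14. In neurons it was 64.3 CPM (59.0 to 69.9), 45.9 (40.9 to 51.4) and 23.6 (21.0 to 26.5). The intervals did not overlap between any of the 3 libraries in either class, and deep neurons alone had 64.1, 45.8 and 23.7 CPM. In myelinating Schwann cells it was 20.6, 17.5 and 9.78 CPM, where the day 14 interval (7.55 to 12.5) lay below the others. With 1 library per condition these orders have no test, and a difference between the libraries as a whole cannot be told apart from the injury.

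Dusp6, a phosphatase that inactivates ERK and is induced by it, was also chosen after its values were seen and stood apart in endothelial cells, with 139 CPM (122 to 157) in the naïve library, 52.7 (42.1 to 65.3) on day 7 and 28.7 (22.8 to 35.7) on day 14. In SGCs it was 130 CPM in the naïve library, 108 on day 7 and 111 on day 14. Btc, the gene of the ligand betacellulin, had 8, 0 and 76 UMIs in non-myelinating Schwann cells, or 42.2, 0 and 154 CPM, and the 76 UMIs came from 18 cells, while 6 of the 8 came from 1 cell. In the same cells the markers of the class summed to 7234, 7219 and 4927 CPM and the fibroblast markers to 1387, 1187 and 2285 CPM, whose part was not tested.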
